A study of Homo sapiens with 16 samples.

Results

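The genes for the insulin-like growth factor (IGF) binding proteins and IGF receptors were followed across control, siTAZ, sibcat and APC cells of the human colorectal cancer line SW480. The 9 genes were IGFBP1 to IGFBP7, IGF1R and IGF2R. Every array probe set annotated to exactly 1 of these symbols was taken, which gave 24 of the 54613 probe sets tested and 9 of the 19775 genes with such a probe set. Where a gene had several probe sets, that of highest average signal over the 16 arrays, called here its brightest, represented it.

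Each group comprised 4 of 16 Affymetrix U133 Plus 2.0 arrays, lettered A to D. Control cells (labelled siGFP) carried an empty vector and received a control siRNA. The siTAZ cells carried the empty vector and received an siRNA against TAZ, a coactivator of the TEAD transcription factors encoded by WWTR1. The sibcat cells carried the empty vector and received an siRNA against beta-catenin, the nuclear effector of Wnt signalling encoded by CTNNB1. The APC cells stably carried a vector for wild-type APC, a scaffold of the complex that degrades beta-catenin, in place of the empty vector, and received the control siRNA. All groups went through siRNA transfection and grew in serum-containing medium to which insulin, hydrocortisone and 1-thioglycerol were added, so insulin was present in every culture. Only 1 siRNA condition per target was used, and the labels do not say whether the APC arrays came from 1 clone or several. The series title concerns TAZ as a mediator of Wnt signalling, and each comparison here shows how these genes differed with 1 of the 3 interventions.

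IGF1 and IGF2 are secreted growth factors that signal through the tyrosine kinase receptor IGF1R and its relative, the insulin receptor INSR, by way of IRS docking proteins, PI3K and AKT. IGFBP1 to IGFBP6 are secreted proteins that bind IGFs with high affinity, extend their life outside the cell and limit or deliver them to receptors, and proteases that cut them release the ligand. IGFBP7 binds IGFs weakly and is often counted as a related protein of the extracellular matrix, while IGF2R, the cation-independent mannose 6-phosphate receptor, takes up IGF2 for degradation and sorts lysosomal enzymes.

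The sequences just before the transcription start were examined because beta-catenin acts through TCF/LEF factors and TAZ through TEAD factors. RefSeq promoter entries (GRCh38.p14) were held for 7 of the 9 genes, in 9 entries, and windows of 250 bases upstream of the start were searched on both strands for the TEAD site GGAATG, for the TCF/LEF sites CTTTGAA or CTTTGAT, and for the TATA box TATAAA. IGFBP1 and IGFBP7 had no entry. The last 150 bases before the start are shown for IGFBP3 and IGFBP6, which both rose in sibcat cells and fell in APC cells. They are also shown for IGFBP4, which fell in APC cells and held a TATA match. IGFBP2 fell in APC cells too, and its entries, which held no match, are not shown. The brightest probe set of IGF2R also rose in sibcat cells and fell in APC cells. Its entry, which held no match, is not shown either. Capitals mark a motif match.
IGFBP3, chr7:45921273-45921422, minus strand: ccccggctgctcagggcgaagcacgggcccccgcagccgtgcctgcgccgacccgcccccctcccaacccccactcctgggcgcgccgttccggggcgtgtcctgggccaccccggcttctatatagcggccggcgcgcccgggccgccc
IGFBP6, chr12:53097517-53097666, plus strand: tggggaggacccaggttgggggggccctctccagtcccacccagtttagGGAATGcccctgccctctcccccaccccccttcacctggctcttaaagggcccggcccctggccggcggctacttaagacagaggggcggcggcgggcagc
IGFBP4, chr17:40443300-40443449, plus strand: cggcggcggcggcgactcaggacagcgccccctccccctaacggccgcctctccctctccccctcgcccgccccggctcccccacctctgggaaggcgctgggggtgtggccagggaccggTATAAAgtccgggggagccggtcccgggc

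The IGFBP6 window held a TEAD match whose first base lay at -101 from the start. The IGFBP4 window held a TATA match at -29. No full match to any of these motifs was found in the IGFBP3 window. Among the other genes with an entry, IGFBP5 had a TEAD match at -235 and the rest had no match to any of the 3 motifs. No TCF/LEF match was found in any of the 9 entries, and no window held overlapping matches. Over 35116 RefSeq promoter windows of the same length, 11.9% held a TEAD match, 5.94% a TCF/LEF match and 10.7% a TATA match. These are matches of letters in a short window and do not show binding. The windows of IGF1R, IGF2R and IGFBP3 were rich in G and C, at 81.2%, 79.2% and 76% of bases, against a median of 58% over all promoters. They held 48, 33 and 32 CpG dinucleotides respectively, where the median promoter held 11.

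The labels were checked on the targeted genes. WWTR1 fell by 3.37 on the log2 scale in siTAZ cells, to 9.66% of control (adjusted p = 1.66e-14). CTNNB1 fell by 2.96 in sibcat cells, to 12.9% of control (adjusted p = 3.14e-12). WWTR1 was also higher in sibcat (+0.70) and APC cells (+0.73). CTNNB1 was lower in APC cells (-0.38, 77.1% of control, adjusted p = 0.0183), with 2 of its 3 probe sets called lower. In siTAZ cells its brightest probe set was not called (0.20, adjusted p = 0.25), while 1 of the 3 was higher. In sibcat cells 2 of 5 APC probe sets were lower, but not the brightest (-0.11, adjusted p = 0.664). For APC, 2 of its 5 probe sets were higher in APC cells while its brightest was not called (+0.08, adjusted p = 0.742), and whether these probes read the introduced vector is not given in the sources used here. Of 10 epithelial and colon markers, EPCAM (group means 12.63 to 12.91) and KRT18 (13.87 to 14.20) were bright in every group, KRT20 was dim (2.61 to 2.88) and GPA33 lay near the median of all probe sets (5.01 to 5.11). In APC cells 5 of the 10 (50%) were lower and 0 higher, beside 15.7% and 15% of all genes, and KRT8 fell most (-0.52). In siTAZ cells 1 was higher (10%) and 2 lower (20%), with CDH1 at -1.13, beside 15.2% and 11.8% of all genes. In sibcat cells 2 were higher (20%) and 1 lower (10%), with VIL1 at 1.02 and CDX2 at -0.97, beside 17.1% and 15.8%. For 10 genes, the siTAZ and sibcat counts are near those shares. The part of these marker changes in the results was not tested. The 8 fibroblast markers had no call in any comparison with control, and 5 were dim in every group, as were 4 of 6 endothelial markers, of which the dim TEK was lower in APC cells (-0.24, adjusted p = 0.0109). Of 5 leukocyte markers, 2 were dim in every group, among them PTPRC, which defines leukocytes and stayed between 3.01 and 3.15. CD79A (6.39 in control) and CD3E (5.22 in control) were not dim in control cells and had no call in any comparison with control. CD14 was the leukocyte marker that changed, rising by 0.59 in siTAZ, 1.63 in sibcat and 0.48 in APC cells. The ACTB control, whose 3 prime signal exceeds its 5 prime signal more in degraded RNA, gave a log2 difference of 1.90 to 2.26 in control, 2.25 to 3.09 in siTAZ, 2.07 to 2.56 in sibcat and 1.74 to 2.39 in APC arrays. The siTAZ range was the highest (exact two-sided permutation p = 0.0571 against control), and its part in the siTAZ results was examined by adding it as a covariate.

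Values are log2 expression levels, and a probe set below the median level of all probe sets, 5.10, is called dim, because its signal may be largely background. Of the 24 probe sets, 14 reached that level in at least 1 group and none was left out. A probe set was called changed at an adjusted p under 0.05 in limma, over all probe sets within a comparison. Levels come from whole cultures, where fewer cells expressing a gene and less RNA per cell cannot be told apart.

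In APC cells 10 of the 24 probe sets were lower and 0 higher than in control, beside 11.3% and 12.7% of all probe sets. By gene, 7 of 9 were lower and 0 higher, with a median difference of -0.77 against 0.01 over all genes, of which 15.7% were lower and 15% higher. Among the 7 lower genes, IGFBP1 was dim. Its call and that of IGF2R were lost for the mean of the gene's probe sets (-0.08 and -0.07, adjusted p = 0.543 and 0.394). In sibcat cells 9 probe sets were higher and 0 lower, beside 13.4% and 12.2% of all probe sets. Counted by gene, 4 were higher and 0 lower, with a median difference of 0.31 against 0.00 over all genes, of which 17.1% were higher and 15.8% lower. In siTAZ cells 6 probe sets were higher and 2 lower, beside 10.5% and 9.78% of all probe sets. There, 3 genes were higher and 1 lower, with a median of 0.12 against 0.02 over all genes, of which 15.2% were higher and 11.8% lower. Without control C, 5 probe sets in place of 8 were called in siTAZ cells. The 3 comparisons share the control arrays, so their values are set side by side without a test of likeness.

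**Figure D1:**
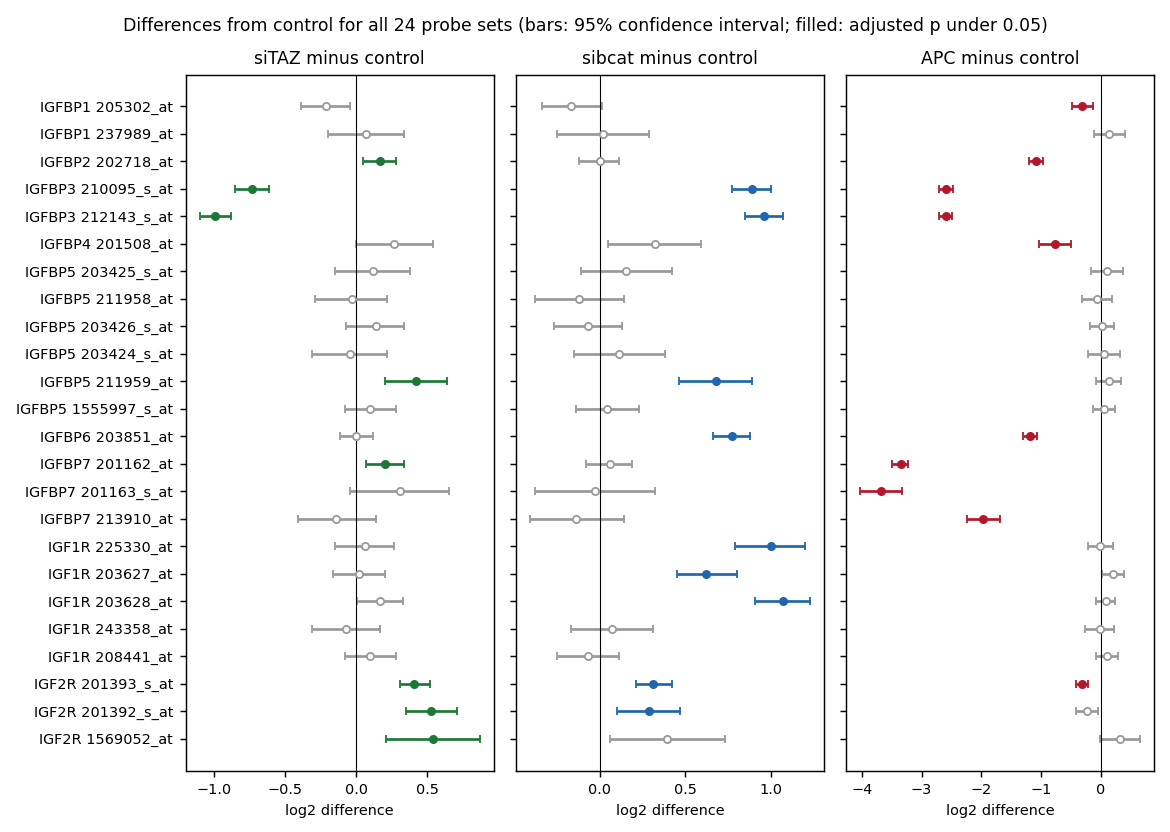
Log2 difference from control (horizontal axis, with its own range in each panel) for each of the 24 probe sets, with 95% confidence intervals; filled points passed an adjusted p under 0.05. All 10 filled APC points are negative and all 9 filled sibcat points positive, while 6 siTAZ points are positive and 2 negative.

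**Figure D2:**
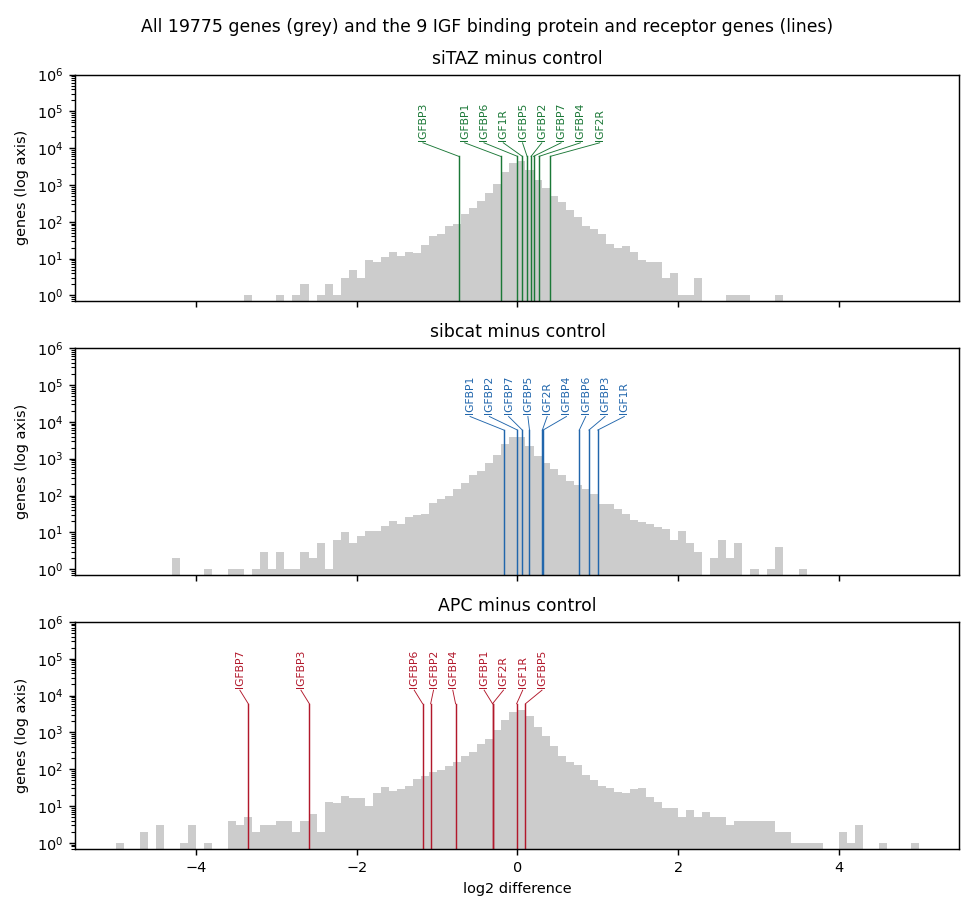
Histograms of the log2 difference from control over 19775 genes (horizontal axis log2 difference, vertical axis number of genes on a log scale), with coloured lines at the 9 genes of the IGF system. IGFBP7 and IGFBP3 lie far in the lower tail for APC cells, and IGF1R, IGFBP3 and IGFBP6 in the upper part for sibcat cells.

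IGFBP3, the main carrier of IGFs in blood and a regulator of growth and survival in its own right, differed between all 4 groups. Its brightest probe set (210095_s_at) read 12.37, 12.45, 12.37 and 12.27 on control arrays A to D, 11.67, 11.61, 11.65 and 11.62 on siTAZ arrays, 13.24, 13.24, 13.24 and 13.28 on sibcat arrays, and 9.86, 9.68, 9.78 and 9.79 on APC arrays. No array of any group overlapped those of another, and the order ran from sibcat through control and siTAZ to APC. Against control, IGFBP3 fell by 0.73 in siTAZ cells (SE 0.06, to 60.4%, adjusted p = 4.82e-08). It rose by 0.89 in sibcat cells, 1.85-fold (SE 0.06, adjusted p = 2.2e-09). In APC cells it fell by 2.59, 6.01-fold (SE 0.06, adjusted p = 1.41e-15), the place 47 from the bottom of 19775 genes. The other probe set (212143_s_at) changed by -0.99, 0.96 and -2.60 in siTAZ, sibcat and APC cells. Its arrays did not overlap between groups either, with ranges of 10.41 to 10.56 in control, 9.50 to 9.54 in siTAZ, 11.42 to 11.49 in sibcat and 7.85 to 7.97 in APC cells. Both probe sets are of the kind that can match several transcripts. The direct comparison of APC with sibcat cells gave a difference of -3.47 for 210095_s_at, 11.1-fold (SE 0.06, adjusted p = 5e-17), and only 9 genes were lower still.

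**Figure D3:**
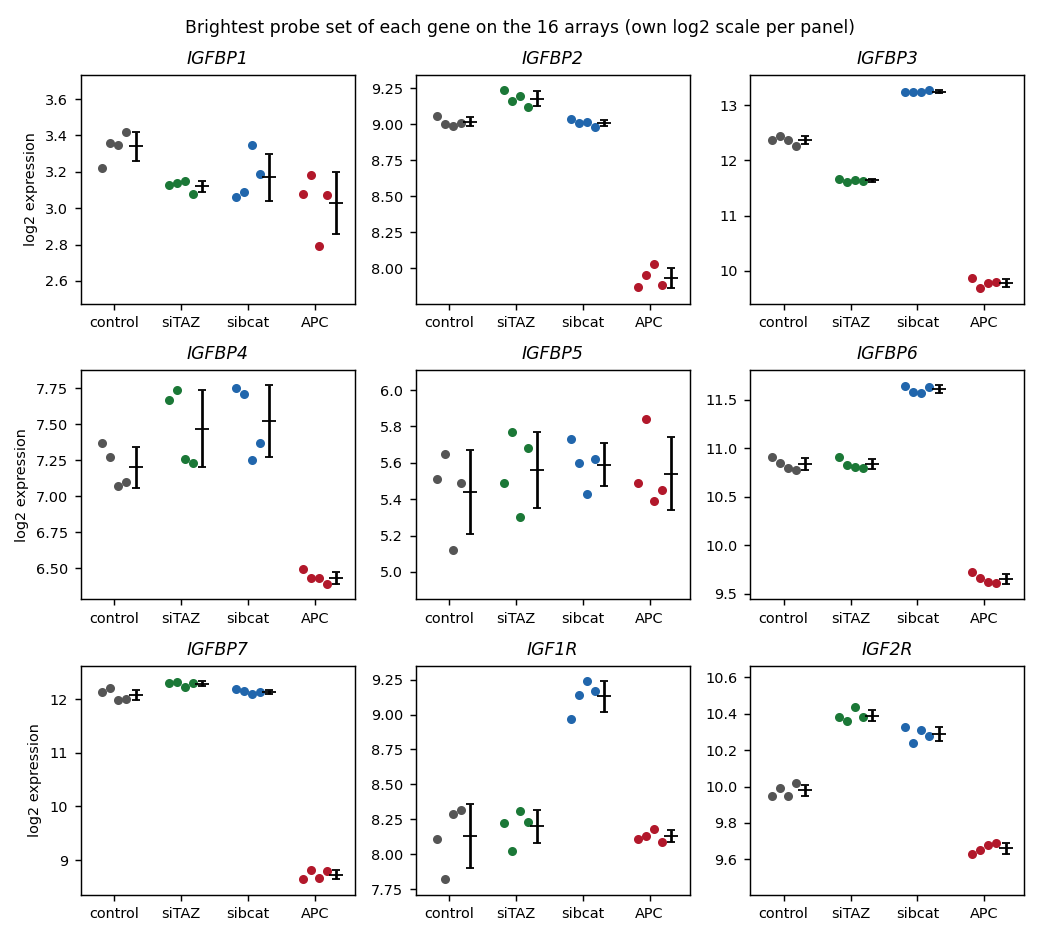
Log2 expression of the brightest probe set of each of the 9 genes on each of the 16 arrays (points, A to D from left to right within a group), with the group mean and SD (bars, n = 4); each panel has its own vertical range. The IGFBP3 groups lie at 4 separate levels, IGFBP7 and IGFBP2 drop only in the APC arrays, and IGF1R stands apart in the sibcat arrays.

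IGFBP7, a secreted protein that is silenced in some tumours and is linked to adhesion and senescence, was lowered most in APC cells. Probe set 201162_at read 12.13, 12.20, 11.99 and 12.01 on control arrays, 12.30, 12.32, 12.22 and 12.31 on siTAZ arrays, 12.19, 12.15, 12.09 and 12.13 on sibcat arrays, and 8.65, 8.81, 8.66 and 8.80 on APC arrays. The highest APC array, at 8.81, lay far below the lowest array of the other groups, at 11.99. The APC difference was -3.35, 10.2-fold (SE 0.06, 9.79% of control, adjusted p = 2.29e-16), which placed it 21 from the bottom of all genes. Both further probe sets fell too, with differences of -3.68 for 201163_s_at (SE 0.17, adjusted p = 1.6e-11) and -1.97 for 213910_at (SE 0.13, adjusted p = 3.3e-09). The mean of 213910_at in APC cells, 3.56, is dim, which leaves the size of that fall uncertain. In sibcat cells 201162_at differed by 0.06, with a 95% confidence interval from -0.08 to 0.19 (adjusted p = 0.605).

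A rise of IGFBP7 in siTAZ cells was small and not stable. Probe set 201162_at was 0.20 higher (SE 0.06, adjusted p = 0.0275), and the siTAZ arrays all lay above the control arrays. The call was lost without control C (0.17, adjusted p = 0.0954), control D (0.18, 0.086), siTAZ A (0.20, 0.0607), siTAZ B (0.19, 0.0697) or siTAZ D (0.20, 0.0652). It was also lost with the ACTB difference as a covariate (0.17, adjusted p = 0.159). For 201163_s_at the difference was 0.31 (adjusted p = 0.247), and that covariate raised it past the threshold (0.57, adjusted p = 0.031), while for 213910_at it was -0.14 (adjusted p = 0.581). An antisense gene at the locus, IGFBP7-AS1, was dim in every group (2.51 in control and 2.52 in APC cells) and was not called.

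IGFBP6, which prefers IGF2 over IGF1, rose in sibcat cells and fell in APC cells. Its only probe set (203851_at) read 10.91, 10.85, 10.80 and 10.78 on control arrays, 10.91, 10.83, 10.81 and 10.80 on siTAZ arrays, 11.64, 11.58, 11.57 and 11.63 on sibcat arrays, and 9.72, 9.66, 9.62 and 9.61 on APC arrays. The siTAZ arrays covered almost the same range as the control arrays, and the sibcat and APC arrays stood clear of both. IGFBP6 was 0.77 higher in sibcat cells, 1.71-fold (SE 0.05, adjusted p = 7.78e-09). It was 1.18 lower in APC cells on the log2 scale, a difference of -1.18 and 2.27-fold (SE 0.05, adjusted p = 2.01e-11). The siTAZ difference was 0.00 with a 95% confidence interval from -0.11 to 0.12 (adjusted p = 0.985). Between APC and sibcat cells the difference was -1.95, 3.87-fold (SE 0.05, adjusted p = 2.88e-14).

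IGFBP2, a binding protein often raised in tumours, fell in APC cells. Its probe set (202718_at) read 9.06, 9.0, 8.99 and 9.01 on control arrays, 9.24, 9.16, 9.20 and 9.12 on siTAZ arrays, 9.04, 9.01, 9.02 and 8.98 on sibcat arrays, and 7.87, 7.95, 8.03 and 7.88 on APC arrays. All APC arrays lay far below the rest, and sibcat and control arrays overlapped. The APC difference was -1.08, 2.12-fold (SE 0.05, adjusted p = 6.61e-11), while the sibcat difference was -0.00 (95% confidence interval -0.12 to 0.11). In siTAZ cells IGFBP2 was 0.17 higher (SE 0.05, adjusted p = 0.0387), with no overlap between the arrays. That call was lost without control B (0.16, adjusted p = 0.0663), control C (0.16, 0.0935), control D (0.16, 0.0776), siTAZ A (0.15, 0.109), siTAZ B (0.17, 0.0615) or siTAZ C (0.16, 0.0859), and with the ACTB covariate (0.14, adjusted p = 0.163).

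IGFBP4, which mostly restrains IGF action until the protease PAPPA cuts it, also fell in APC cells, and its replicates split by letter. Its probe set (201508_at) read 7.37, 7.27, 7.07 and 7.10 on control arrays, 7.67, 7.74, 7.26 and 7.23 on siTAZ arrays, 7.75, 7.71, 7.25 and 7.37 on sibcat arrays, and 6.49, 6.43, 6.43 and 6.39 on APC arrays. Arrays A and B exceeded C and D by 0.24 in control, 0.46 in siTAZ and 0.42 in sibcat cells, but by 0.05 in APC cells. The APC difference was -0.77, 1.7-fold (SE 0.13, adjusted p = 0.000177), and its arrays stood below all others. In siTAZ cells the difference was 0.27 (adjusted p = 0.165), and with the replicate letter as a block the adjusted p was 0.024. With the ACTB difference as a covariate, the siTAZ difference was 0.01 (adjusted p = 0.96). In sibcat cells it was 0.32 (adjusted p = 0.0814), with an adjusted p of 0.00798 with the block, 0.0284 without sibcat C (difference 0.41) and 0.188 with the ACTB covariate (0.19). Both siRNA groups overlapped the control arrays.

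**Figure D4:**
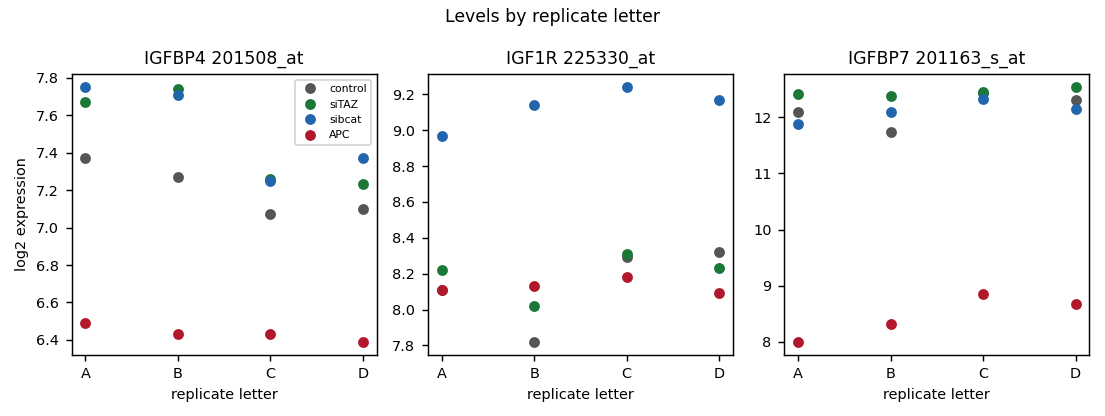
Log2 expression (vertical axis) by replicate letter (horizontal axis) for IGFBP4 201508_at, IGF1R 225330_at and IGFBP7 201163_s_at, coloured by group. Arrays A and B lie above C and D for IGFBP4 in control, siTAZ and sibcat cells. For IGFBP7 201163_s_at, A and B lie below C and D in every group, by least in siTAZ cells.

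IGFBP5, a binding protein that attaches to extracellular matrix, was represented by 6 probe sets, of which 5 were dim in every group. The brightest (203425_s_at) read 5.51, 5.65, 5.12 and 5.49 on control arrays, 5.49, 5.77, 5.30 and 5.68 on siTAZ arrays, 5.73, 5.60, 5.43 and 5.62 on sibcat arrays, and 5.49, 5.84, 5.39 and 5.45 on APC arrays. The groups overlapped throughout, and no difference from control was called (0.12, 0.15 and 0.10 in siTAZ, sibcat and APC cells, with 95% confidence intervals from -0.15 to 0.38, -0.11 to 0.42 and -0.17 to 0.37). Only the dim probe set 211959_at was called. It read 2.58, 2.92, 2.69 and 2.37 in control, 3.24, 2.83, 3.06 and 3.11 in siTAZ, 3.32, 3.33, 3.35 and 3.27 in sibcat, and 2.75, 2.70, 2.70 and 2.91 in APC cells. It was 0.42 higher in siTAZ (adjusted p = 0.00619) and 0.68 higher in sibcat cells (adjusted p = 6.4e-05), at levels where most signal may be background. The siTAZ call was lost in replicates A and B alone (0.28, adjusted p = 0.343).

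IGFBP1, the binding protein that insulin represses in liver, was dim at both its probe sets. Probe set 205302_at read 3.22, 3.36, 3.35 and 3.42 on control arrays, 3.13, 3.14, 3.15 and 3.08 on siTAZ arrays, 3.06, 3.09, 3.35 and 3.19 on sibcat arrays, and 3.08, 3.18, 2.79 and 3.07 on APC arrays. The siTAZ and APC arrays lay below all control arrays, and the sibcat arrays overlapped them. Only the APC difference was called (-0.31, SE 0.08, adjusted p = 0.0106), and it was -0.08 (adjusted p = 0.543) for the mean of both probe sets. The siTAZ difference was -0.21 (adjusted p = 0.0874), which passed without APC C (adjusted p = 0.0406). Probe set 237989_at was called in no comparison with control.

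Among the receptors, IGF1R, the signalling receptor for IGF1 and IGF2, rose in sibcat cells. Its brightest probe set (225330_at) read 8.11, 7.82, 8.29 and 8.32 on control arrays, 8.22, 8.02, 8.31 and 8.23 on siTAZ arrays, 8.97, 9.14, 9.24 and 9.17 on sibcat arrays, and 8.11, 8.13, 8.18 and 8.09 on APC arrays. The sibcat arrays stood above all others, and the remaining groups overlapped. IGF1R was 1.00 higher in sibcat cells, 1.99-fold (SE 0.10, adjusted p = 4.99e-07), place 330 from the top of all genes. Probe set 203627_at rose by 0.62 (adjusted p = 2.03e-05) and 203628_at by 1.07 (adjusted p = 7.78e-09), while the dim probe sets 243358_at and 208441_at were not called. Averaging all 5 probe sets, dim ones included, gave 0.54 in place of 1.00. In APC cells the difference was -0.01 (95% confidence interval -0.21 to 0.20), and in siTAZ cells it was 0.06 (-0.15 to 0.27). For 203628_at the siTAZ difference of 0.17 had an adjusted p of 0.136, and of 0.0476 with the replicate letter as a block, while the ACTB covariate gave 0.02 (adjusted p = 0.879).

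IGF2R, the clearance receptor for IGF2, rose with both siRNAs. Its brightest probe set (201393_s_at) read 9.95, 9.99, 9.95 and 10.02 on control arrays, 10.38, 10.36, 10.44 and 10.38 on siTAZ arrays, 10.33, 10.24, 10.31 and 10.28 on sibcat arrays, and 9.63, 9.65, 9.68 and 9.69 on APC arrays. Control arrays lay between the raised siRNA groups and the lowered APC group with no overlap. The difference was 0.41 in siTAZ cells, 1.33-fold (SE 0.05, adjusted p = 8.58e-06), 0.31 in sibcat cells (adjusted p = 0.000105) and -0.31 in APC cells (adjusted p = 0.000107). The mean of its 3 probe sets gave -0.07 in APC cells (adjusted p = 0.394). Probe set 201392_s_at was 0.53 higher in siTAZ (adjusted p = 0.000183) and 0.29 higher in sibcat cells (adjusted p = 0.0195), the latter lost without control D (0.27, adjusted p = 0.0501) or sibcat B (0.24, 0.0725). In APC cells it was -0.23 (adjusted p = 0.0569), and the adjusted p was 0.0191 with the block, 0.0224 without APC A and 0.0323 without siTAZ A.

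The third IGF2R probe set, 1569052_at, was dim and had the sign of the brighter probe sets in both siRNA groups. It was 0.54 higher in siTAZ cells (adjusted p = 0.0209), lost without control B (0.38, adjusted p = 0.0684), control C (0.52, 0.0545) or siTAZ C (0.48, 0.0653). In sibcat cells the difference was 0.39 (adjusted p = 0.0822, and 0.0448 with the block or 0.0136 without control A). In APC cells it was 0.32 (adjusted p = 0.164), the opposite sign to the brighter probe sets, and it passed without control A (0.47, adjusted p = 0.0329).

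The groups were also compared with each other. APC cells had 14 probe sets lower and 0 higher than sibcat cells, beside 15.6% and 16% of all probe sets. IGFBP4 was -1.08 (adjusted p = 2.53e-06), IGF1R -1.0 (adjusted p = 2.83e-07) and IGF2R -0.63 (adjusted p = 2.08e-08) in that comparison. siTAZ cells had 6 probe sets lower and 2 higher than sibcat cells, beside 13.9% and 12.9% of all probe sets. IGFBP3 led them at -1.61 (adjusted p = 6.83e-13), with IGF1R at -0.94 (adjusted p = 8.43e-07) and IGFBP6 at -0.77 (adjusted p = 5.69e-09). Both calls of a higher level there lay near the threshold. IGFBP2, at 0.17 (adjusted p = 0.0281), was not called without siTAZ A, siTAZ C, sibcat B, sibcat C or sibcat D (adjusted p 0.0516 to 0.0812), though its difference was still 0.15 to 0.17. IGF2R 201392_s_at, at 0.24 (adjusted p = 0.0427), was not called with any of 10 arrays left out, where its difference was 0.17 to 0.26 and its adjusted p up to 0.156. IGFBP7 201163_s_at was 0.34 higher in siTAZ than in sibcat cells (adjusted p = 0.166), and its adjusted p was 0.0417 with the block.

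Against APC cells, siTAZ cells had 11 probe sets higher and 0 lower, beside 15.5% and 16.9% of all probe sets. IGFBP7 was 3.56 higher, 11.8-fold (SE 0.06, adjusted p = 1.05e-16), and IGFBP3 was 1.86 higher (adjusted p = 6.3e-14). IGFBP2 was 1.25 higher (adjusted p = 6.43e-12). The dim IGFBP5 probe set 211959_at, 0.29 higher (adjusted p = 0.0348), was lost with the block (adjusted p = 0.0529) and without siTAZ A, C or D or APC A, B or C (adjusted p 0.0642 to 0.119). IGF1R differed by 0.07 (95% confidence interval -0.14 to 0.27).

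The genes most alike were found by Pearson correlation over the 16 arrays, as a description that includes the differences between groups. IGFBP7 was most like LBH (r = 0.998), IGFBP2 most like FAM133A (0.996), IGFBP3 most like OPN3 (0.995) and IGFBP6 most like HIBADH (0.993). For IGF2R it was PROS1 (0.989), for IGFBP4 CCDC92 (0.986), for IGF1R EMP1 (0.979) and for the dim IGFBP1 EIF1 (0.835). PROS1 differed from control by 1.34, 0.91 and -1.10 in siTAZ, sibcat and APC cells, a wider span than that of IGF2R.

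Neighbours in the genome, in RefSeq order, were set beside the 4 binding protein genes with the largest differences in APC cells. Neighbours were taken among measured protein-coding genes only. IGFBP7 lies between POLR2B and ADGRL3, which differed by 0.04 each (adjusted p = 0.782 and 0.753, ADGRL3 being dim). IGFBP3 lies between IGFBP1 and TNS3, and TNS3 rose, by 0.84 with APC (adjusted p = 2.97e-09) and by 1.56 in sibcat cells (adjusted p = 1.85e-12). IGFBP6 lies between SPRYD3 and SOAT2, which differed by 0.11 and 0.23 in APC cells (adjusted p = 0.31 and 0.129). SPRYD3 was higher in sibcat cells (0.28, adjusted p = 0.00536) and in siTAZ cells (0.41, adjusted p = 0.000293). IGFBP2 and IGFBP5 are neighbours, and IGFBP2 fell by 1.08 in APC cells where IGFBP5 differed by 0.10. On the other side of IGFBP2, RPL37A differed by -0.00.

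Other genes of the IGF system were counted from lists in which 86 of 92 genes had a probe set of their own. In siTAZ cells 22 (25.6%) were higher and 20 (23.3%) lower, beside 15.2% and 11.8% of all genes. In sibcat cells 31 (36%) were higher and 7 (8.14%) lower, beside 17.1% and 15.8%, and in APC cells 17 (19.8%) and 19 (22.1%), beside 15% and 15.7%. These shares of all genes are the background for each list below. The median differences were 0.07, 0.08 and 0.02, against 0.02, 0.00 and 0.01 over all genes. Averaging all probe sets of a gene, dim ones included, turned no direction among these 116 calls, but 21 calls were lost and 47 differences became over 1.5 times smaller. Sizes below are those of the brightest probe set, and the mean is given for some genes only. The background of all genes was not matched for signal. Only 12 of the 86 genes were dim in every group, while 28909 of the 54613 probe sets were not. Fitted alone, those 28909 gave 11731 calls in siTAZ cells, against 11093 from all 54613. The part of signal level in the list shares was not tested.

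IGF2 had no probe set of its own and was not analysed here. Of the 6 other ligands and carriers, INS, IGFALS, INSL4, INSL5 and INSL6 were dim in every group and not called, with differences between -0.11 and 0.22, and IGF1 was called. IGF1 had group means of 6.88 in control, 6.97 in siTAZ, 5.91 in sibcat and 5.82 in APC cells. Its difference was -0.97 for sibcat (adjusted p = 2.96e-06) and -1.06 for APC cells (adjusted p = 1.1e-06), at a probe set that can cross-hybridise. INSR, the insulin receptor, was 0.38 higher in siTAZ cells (adjusted p = 0.000202) and was not called in sibcat (-0.13) or APC cells (-0.15). The insulin receptor-related gene INSRR was dim.

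Proteases that cut binding proteins, with their inhibitors, had 6 of 14 higher (42.9%) and 2 lower (14.3%) in siTAZ cells, 5 (35.7%) and 0 in sibcat cells, and 1 (7.14%) and 3 (21.4%) in APC cells. The share lower in siTAZ cells was near the 11.8% of all genes. STC1, a stanniocalcin that inhibits PAPPA, had differences of 0.86 in siTAZ (adjusted p = 6.77e-06) and -1.91 in APC cells (adjusted p = 1.59e-10). HTRA1, a secreted serine protease that cuts IGFBP5, fell by 0.68 in siTAZ and 0.97 in APC cells and rose by 0.39 in sibcat cells, with adjusted p-values of 0.000131, 1.86e-06 and 0.0114. The lysosomal protease CTSD rose by 0.54, 1.03 and 0.58 in siTAZ, sibcat and APC cells. PRSS23, a secreted serine protease, rose by 0.86 in siTAZ and 0.64 in sibcat cells.

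Among 3 secreted proteins related to the binding proteins, ESM1 fell by 1.00, 1.95 and 2.08 in siTAZ, sibcat and APC cells. Its means of 4.62, 3.67 and 3.54 there are dim, so these sizes are uncertain. KAZALD1 fell by 0.32 in siTAZ cells (adjusted p = 0.00225). Of the 3 IGF2 mRNA-binding proteins, IGF2BP3 rose by 1.18 in sibcat (adjusted p = 1.64e-09) and 0.94 in APC cells (adjusted p = 2.44e-08). IGF2BP2 rose by 0.52 in sibcat cells and fell by 0.41 in APC cells, with adjusted p-values of 6.14e-05 and 0.000598. IGF2BP1 was 0.23 higher in siTAZ (adjusted p = 0.036) and 0.26 higher in APC cells (adjusted p = 0.0147). The siTAZ call was lost without control A, C or D or siTAZ A, C or D, and the APC call without control C (0.22, adjusted p = 0.0594).

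Docking and adaptor proteins had 3 of 16 higher (18.8%) and 6 lower (37.5%) in siTAZ cells, 6 (37.5%) and 2 (12.5%) in sibcat cells, and 1 (6.25%) and 5 (31.2%) in APC cells. The shares higher in siTAZ and lower in sibcat cells were near the 15.2% and 15.8% of all genes. IRS1, which docks to IGF1R and INSR, fell by 0.51 in siTAZ and 0.42 in APC cells and rose by 0.99 in sibcat cells, with adjusted p-values of 0.000258, 0.00116 and 9.73e-08. Its relative IRS2 rose by 0.38 in siTAZ cells and fell by 0.84 in sibcat and 0.94 in APC cells (adjusted p = 0.000738, 8.85e-08 and 1.75e-08). SOCS2, a feedback inhibitor of cytokine and growth hormone receptors, fell by 1.77, 0.54 and 1.29 in siTAZ, sibcat and APC cells. PTPN1, a phosphatase of the insulin receptor, fell by 0.80 in siTAZ cells (adjusted p = 2.14e-06), with -0.38 for the mean of its probe sets. GRB10, an adaptor that restrains both receptors, fell by 0.63 in siTAZ and rose by 0.52 in sibcat cells. The mean of its probe sets gave -0.30 and 0.16. SOCS3 fell by 0.49 in siTAZ and rose by 0.59 in sibcat cells, and the mean of its probe sets gave -0.13 (adjusted p = 0.104) and 0.22. GRB2 rose by 0.46 in APC cells.

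**Figure D5:**
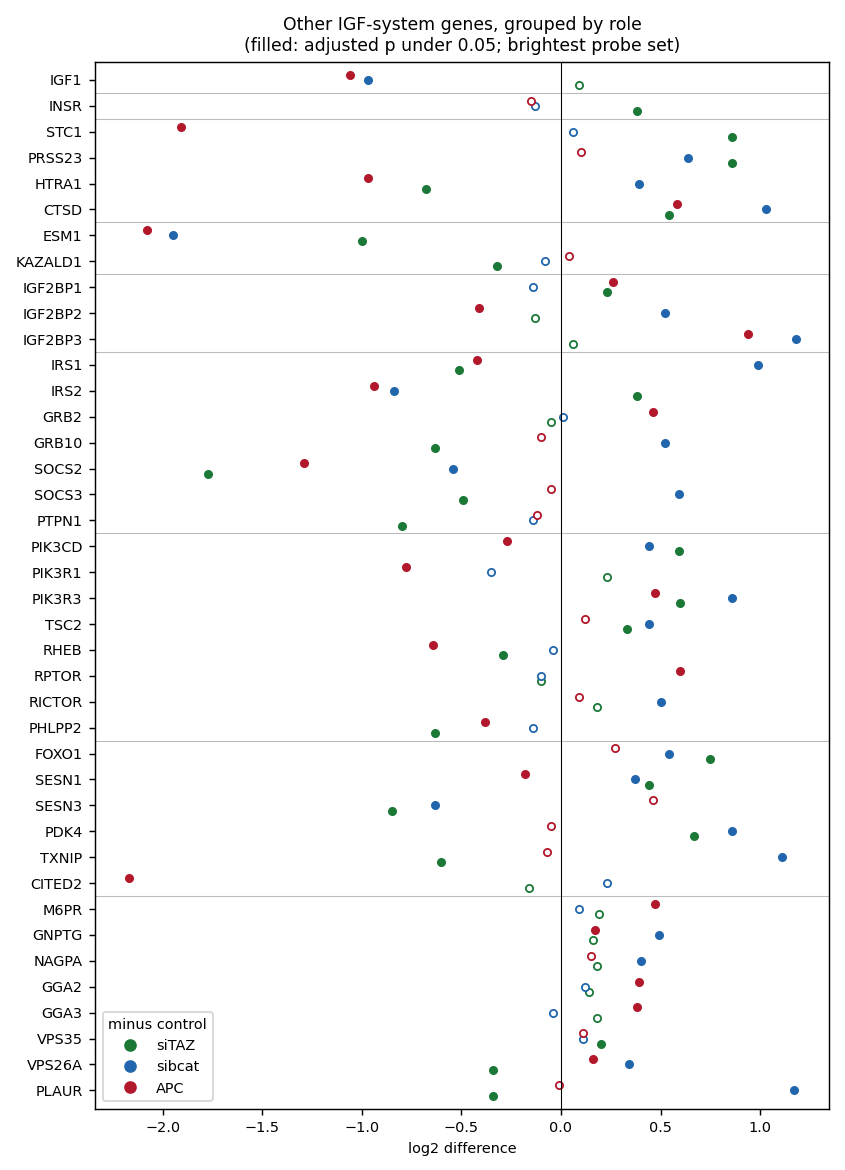
Log2 difference from control (horizontal axis) for the other named genes of the IGF system, coloured by comparison and grouped by role between grey lines; filled points passed an adjusted p under 0.05. IRS1 and IRS2 lie on opposite sides of 0 in both siTAZ and sibcat cells, and CITED2, ESM1 and STC1 lie lowest in APC cells.

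In the PI3K, AKT and mTOR list 4 of 20 genes were higher (20%) and 6 lower (30%) in siTAZ cells, where 15.2% and 11.8% of all genes were. In sibcat cells 9 (45%) were higher and 1 (5%) lower, and in APC cells 7 (35%) and 6 (30%). PIK3R3, a regulatory subunit of PI3K, rose by 0.60, 0.86 and 0.47 in siTAZ, sibcat and APC cells, and the catalytic subunit PIK3CD rose by 0.59 in siTAZ and 0.44 in sibcat cells. PHLPP2, a phosphatase that acts on AKT, fell by 0.63 in siTAZ cells (adjusted p = 1.73e-07) and 0.38 in APC cells. RPTOR, a subunit of mTOR complex 1, rose by 0.60 in APC cells, where its activator RHEB fell by 0.64 and the PI3K subunit PIK3R1 fell by 0.78. RICTOR, of mTOR complex 2, rose by 0.50 in sibcat cells. TSC2 was 0.44 higher in sibcat cells and 0.33 higher in siTAZ cells, where its call was lost without control C (0.31, adjusted p = 0.0552), control D (0.28, 0.072) or siTAZ A (0.29, 0.0661), and for the mean of its probe sets (0.12, 0.163).

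FOXO factors, which AKT keeps out of the nucleus, and genes linked to them had 6 of 11 higher (54.5%) and 2 lower (18.2%) in siTAZ cells, 4 (36.4%) and 2 (18.2%) in sibcat cells, and 0 and 2 (18.2%) in APC cells. The shares lower in sibcat and APC cells were near the 15.8% and 15.7% of all genes. FOXO1 rose by 0.75 in siTAZ (adjusted p = 2.85e-05) and 0.54 in sibcat cells (adjusted p = 0.000558). PDK4, a kinase that limits glucose oxidation, rose by 0.67 and 0.86 in the same groups. TXNIP, which restrains glucose uptake, fell by 0.60 in siTAZ and rose by 1.11 in sibcat cells. CITED2 fell by 2.17 in APC cells (adjusted p = 3.71e-10). The mean of its probe sets gave -1.02 there. SESN3 fell by 0.85 in siTAZ and 0.63 in sibcat cells. The siTAZ call was lost for the mean of its probe sets (-0.08, adjusted p = 0.427), with the ACTB covariate (-0.67, 0.0532) and in A and B alone (-0.56, 0.197). The sibcat call was lost for that mean too (-0.11, adjusted p = 0.217), and without control C (-0.48, 0.0787), control D (-0.53, 0.0696) or sibcat A (-0.59, 0.0533). SESN1 rose by 0.44 in siTAZ and 0.37 in sibcat cells, and its APC call (-0.18, adjusted p = 0.0435) held in 11 of 28 alternatives.

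Sorting partners of IGF2R had 1 of 11 higher (9.09%) and 2 lower (18.2%) in siTAZ cells, beside 15.2% and 11.8% of all genes. In sibcat cells 5 (45.5%) were higher and 0 lower, beside 17.1% and 15.8%, and in APC cells 6 (54.5%) and 0, beside 15% and 15.7%. PLAUR, the urokinase receptor, which can bind IGF2R, was 1.17 higher in sibcat cells (adjusted p = 1.78e-11) and fell by 0.34 in siTAZ cells. M6PR, the smaller mannose 6-phosphate receptor, rose by 0.47 in APC cells (adjusted p = 0.00366), as did the adaptors GGA2 (0.39) and GGA3 (0.38). GNPTG and NAGPA, which help make the mannose 6-phosphate tag, rose by 0.49 and 0.40 in sibcat cells. The retromer subunit VPS26A fell by 0.34 in siTAZ and rose by 0.34 in sibcat cells, and VPS35 rose by 0.20 in siTAZ cells (adjusted p = 0.011). Both siTAZ calls were lost for the mean of the gene's probe sets (-0.06 for VPS26A and 0.11 for VPS35, adjusted p = 0.683 and 0.0979).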

How the data were processed

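The authors deposited 1 table of log2 expression values per probe set and array, which the submitters' processing notes ascribe to RMA, with no version named. Base 2 was inferred from a range of 1.8 to 14.56. Array signals carry no counts, so precision depends on how many arrays there are. Replicates are called biological in the labels, but separate cultures are not mentioned; the spread behind each p-value is that among these arrays and may be technical.

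After leaving out 62 control probe sets, 54613 were fitted over all 16 arrays with lmFit and eBayes of limma 3.58.1 under R 4.3.3, without a block, with Benjamini-Hochberg adjustment within each of 6 comparisons. All adjusted p-values are from limma. The fit was tested on simulated data. Permutation tests were exact and two-sided, with a smallest possible p of 0.0286. Probe sets with several genes or none named no gene.

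Named were all members, WWTR1, CTNNB1 and APC, every ligand and insulin receptor family gene, up to 3 called genes per pathway list and comparison with the largest difference, and the 3 genes most alike each called member, of which the first is given. Neighbouring and antisense genes and some cell type markers were named outside this rule, after their values were seen. Members and lists were chosen with earlier results of these data known.

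Same-lettered arrays of different groups deviated together (24 of 24 pairs, r from 0.12 to 0.40, all over 0.1), so the letter was used as a block in an alternative fit. Across groups, A with B and C with D gave r from 0.06 to 0.36, a largely overlapping range. In 3 of 16 arrays the own letter was the best match in every other group. Arrays A and B deviated from C and D in every group (r between -0.44 and -0.08), with a higher ACTB difference in A and B. Other alternatives were the prior, dim or ambiguous probe sets left out, 1 or the mean of a gene's probe sets, median centring, the arrays of the 2 groups alone, A and B or C and D alone, the ACTB covariate, and each array left out. A and B against C and D also served as a block in place of the letter. Sequences are RefSeq's (GRCh38.p14). Figures used matplotlib 3.10.9.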

Additional observations from a re-analysis of the deposited data

Results flagged for a closer look

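In 6 of the 96 groups of 4 arrays examined (24 probe sets in 4 groups), 1 array stood far from the other 3, where chance gives about 4.8. For IGFBP3 210095_s_at, sibcat D read 13.28 against 13.24 on each of the other arrays, a gap that is small in size. IGFBP5 203426_s_at read 4.81 on control B against 4.42 to 4.46. IGFBP7 213910_at read 5.64 on sibcat B against 5.30 to 5.32. IGF1R 203627_at read 7.36 on control B against 7.76 to 7.84, and IGF1R 243358_at read 4.11 on siTAZ A against 4.31 to 4.33. IGF2R 201392_s_at read 8.88 on APC A against 8.62 to 8.66, and the APC difference of that probe set passed the threshold without it (-0.29, adjusted p = 0.0224).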

How the results depend on the processing

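Of 60 calls of member probe sets over the 6 comparisons, 49 held under every one of the up to 29 alternatives that gave a value: 4 of 8 in siTAZ, 8 of 9 in sibcat and 8 of 10 in APC cells against control, 6 of 8 for siTAZ against sibcat, 13 of 14 for APC against sibcat and 10 of 11 for siTAZ against APC. No called difference reversed. Over the genes of the pathway and marker lists, 9411 results kept their side of the threshold, 218 lost a call, 160 gained one and 0 reversed. Counts of calls are given below in the order siTAZ, sibcat and APC against control, siTAZ against sibcat, APC against sibcat, siTAZ against APC. All probe sets gave 11093, 13992, 13118, 14595, 17250 and 17720. Testing 1 probe set per gene (19775 features) gave 5951, 7099, 6670, 7259, 8308 and 8377, with 4, 4, 7, 4, 7 and 6 of the 9 members. The mean of a gene's probe sets gave 5405, 6620, 6409, 6919, 7917 and 8229, with 3 and 4 members for siTAZ and sibcat, 5 for APC, and 7 and 6 for APC against sibcat and siTAZ against APC. Leaving out probe sets that can cross-hybridise (37394 left, 15 of them members) gave 6324, 8368, 7900, 8886, 10357 and 10653, with 3, 5, 6, 5, 9 and 6 members. IGFBP3 had no value there and IGF2R kept only its dim probe set. These 3 settings test fewer features. Replicates A and B alone, with fewer arrays, gave 5192, 8007, 6757, 8842 and 11337 for the first 5 comparisons, and 5 members for siTAZ. Leaving out 1 array moved the member calls of siTAZ cells between 5 and 9. The replicate block changed the calls named beside the results (IGFBP4 in siTAZ and sibcat, IGF1R 203628_at in siTAZ, IGF2R 1569052_at in sibcat, IGF2R 201392_s_at in APC, IGFBP7 201163_s_at in siTAZ against sibcat, IGFBP5 211959_at in siTAZ against APC; adjusted p from 0.00798 to 0.0529) and no other member call. Signal over background limits 10 of the 24 probe sets, which were dim in every group.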
